A study of Mus musculus with 30 samples.

Results

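Interferon regulatory factors (IRFs) and STAT2 are the transcription factors that switch on interferon genes and that answer interferon in the cells that receive it. Here the genes Irf1, Irf2, Irf3, Irf5, Irf7, Irf8, Irf9 and Stat2 were followed in mouse back skin. Members on the array were all probe sets whose gene symbol was one of these 8 names, which gave 13 of 45037 probe sets (64 control probe sets not counted) for 8 of 22121 gene symbols. Irf3 had 4 probe sets, Irf8 and Stat2 had 2 each and the other genes had 1 each. All 13 were bright enough to be tested.

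The skin came from female mice of mixed 129–C57BL/6 strain, 8 to 12 weeks old. Wild type (WT) mice were compared with mice that lack D6, a scavenging receptor that removes inflammatory CC chemokines, to follow how inflammation develops and resolves. The phorbol ester TPA, a skin irritant, was painted on the shaved back in 3 applications of 50 μM in acetone, 24 hours apart. Skin was taken 1, 2, 4 or 6 days later, and control mice of each genotype, labelled day 0 or untreated but painted with acetone alone, formed the starting groups. Genotype and day thus made 10 groups of 3 arrays each, 30 arrays in all, with a different mouse behind each array. Whole skin is a mixture of cell types, so that more cells of a type and more RNA per cell cannot be told apart in what follows.

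IRF3 lies ready in most cells and is activated by sensors of viral or misplaced nucleic acid, and it starts the transcription of interferon β. Type I interferon then binds its receptor, and STAT2 and IRF9 join another STAT in the complex ISGF3, which binds interferon-stimulated response elements (ISREs). IRF7, the master regulator of interferon α genes, is itself made in response to ISGF3, which closes an amplifying loop. IRF1 and IRF2 bind similar elements, with IRF1 mostly activating and IRF2 often repressing. IRF5 drives inflammatory cytokine genes in macrophages, and IRF8 is needed for the development of monocytes and dendritic cells.

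All values are log2 intensities, on which a difference of 1 is a 2-fold change, and levels are compared between groups of arrays for 1 probe set at a time. The medians of the arrays ran from 5.64 to 5.80, no array was left out, and the number of arrays limits the precision. A probe set passed when its adjusted p in limma was under 0.05 (Benjamini-Hochberg over the 36029 probe sets tested). Of the 3 probe sets for the D6 gene (Ccbp2), 1 lay at 3.30 to 3.86 on the 15 D6-deficient arrays and at 4.15 to 5.76 on the 15 WT arrays, and the other 2 overlapped between the genotypes. The hybridization controls split the arrays into sets of 17 and 13, which both held arrays of both genotypes, and the effect of this split is given with the alternatives. D6-deficient day 6 was the only group whose arrays all fell in the same set, the larger.

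At day 2 the genotypes parted. In D6-deficient skin 5 of the 13 probe sets were higher than in WT skin, those of Irf7, Irf9 and Stat2 and 1 of Irf8, and none was lower. Of all tested probe sets 4.45% passed at that day, and 2.46% of all passed and were higher in D6-deficient skin. The median difference of the 13 members was 0.41, against -0.02 over all tested probe sets. For 9 of the 13, from 7 of the 8 genes, all 3 D6-deficient arrays lay above all 3 WT arrays, which was so for 10.4% of all tested probe sets. Irf3 was the exception. More than 3-fold, the study's own threshold, were 3 of the 13 (Irf7 and both Stat2 probe sets), against 0.411% of all tested probe sets that passed and were higher by that much. The study had listed the same 3 probe sets as higher by more than 3-fold at day 2 on these same arrays. Its folds were taken after each genotype was set relative to its own day 0 controls, unlike the direct difference here. The count of these 3 probe sets is thus not independent evidence. On this direct difference, with 3 arrays against 3, the methods' unpaired test gave 3 probe sets past its own threshold, an unadjusted p under 0.05 with more than 3-fold. It gave 0 after Benjamini-Hochberg adjustment. With each genotype set relative to its own day 0 controls, as in the methods, the same test gave 3 and 5 of the 13, in that order. The day 0 medians are taken as fixed there, so the spread of the day 0 arrays does not enter.

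Irf7 moved most. On the WT arrays it read 8.17, 8.11 and 7.40 at day 0, 7.34, 7.20 and 7.24 at day 1, 7.29, 7.44 and 7.47 at day 2, 8.50, 8.05 and 8.45 at day 4. Their day 6 values were 7.32, 6.87 and 6.99. The D6-deficient arrays read 8.13, 7.40 and 7.78 at day 0, 7.91, 8.39 and 8.70 at day 1, 10.87, 10.04 and 11.03 at day 2, 8.92, 8.61 and 8.92 at day 4, and ended at 8.17, 7.65 and 7.72. The 3 D6-deficient arrays of day 2 were the highest of the 30, by more than 1 log2 unit over every other array, and on each of the 4 days after TPA all 3 D6-deficient arrays lay above all 3 WT arrays, as did 7.92%, 10.4%, 7.49% and 3.59% of all tested probe sets at days 1, 2, 4 and 6. The genotype difference at day 2 was 3.24 (SE 0.24, 9.48-fold, limma adjusted p = 3.5e-09). At day 1 it was 1.07 (SE 0.24, adjusted p = 0.11), at day 4 0.48 (adjusted p = 0.52) and at day 6 0.79 (adjusted p = 0.24), and these 3 did not pass.

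Within D6-deficient skin Irf7 rose by 2.88 from day 0 to day 2 (SE 0.24, 7.36-fold, limma adjusted p = 4e-09), fell by 1.83 from day 2 to day 4 (adjusted p = 7.4e-06) and fell by 0.97 from day 4 to day 6 (adjusted p = 0.0032). In WT skin it took another course. It rose by 0.93 between day 2 and day 4 (adjusted p = 0.0093), fell by 1.28 from day 4 to day 6 (adjusted p = 0.00038) and ended 0.84 below day 0 (the change was -0.84, adjusted p = 0.015). The change from day 0 to day 2 was 3.37 greater in D6-deficient than in WT mice (SE 0.34, 10.3-fold, adjusted p = 1.7e-06), a contrast in which 5.40% of all tested probe sets passed and 2.78% were higher in D6-deficient mice.

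Irf9, the DNA-binding subunit of ISGF3, moved the same way over a smaller range and with little scatter. Its WT arrays read 8.28, 8.46 and 8.31 at day 0, 8.24, 8.25 and 8.31 at day 1, 8.35, 8.19 and 8.39 at day 2, 8.92, 8.84 and 9.02 at day 4. Their day 6 values were 8.33, 8.17 and 8.25. Those of D6-deficient skin read 8.32, 8.33 and 8.32 at day 0, 8.55, 8.61 and 8.75 at day 1, 9.50, 9.31 and 9.44 at day 2, 9.08, 8.99 and 9.06 at day 4, and ended at 8.29, 8.10 and 8.52. The genotypes did not overlap at days 1 and 2 and overlapped at days 0, 4 and 6. At day 2 the difference was 1.11 (SE 0.10, 2.15-fold, limma adjusted p = 3.8e-08), and the change from day 0 differed between genotypes by 1.14 (SE 0.14, adjusted p = 1.5e-05). At day 1 the genotype difference of 0.37 (SE 0.10, adjusted p = 0.25) did not pass, although the rise from day 0 within D6-deficient skin did (0.32, adjusted p = 0.011).

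Stat2, which carries the activating domain of ISGF3, had a pair of probe sets with nearly the same day 2 difference. On the brighter (1450403_at) the WT arrays read 6.64, 6.60 and 6.34 at day 2 and the D6-deficient arrays 8.31, 8.02 and 8.18, a gap wider than the spread of either group. The difference was 1.65 (SE 0.19, 3.13-fold, limma adjusted p = 4e-06). On the dimmer (1421911_at) WT skin read 6.38, 6.11 and 6.23 and D6-deficient skin 8.10, 7.57 and 8.16, a difference of 1.70 (SE 0.18, 3.25-fold, adjusted p = 7e-07). The change from day 0 to day 2 differed between genotypes by 1.86 (SE 0.27, adjusted p = 0.00018) and 1.82 (SE 0.25, adjusted p = 8.9e-05), in that order. The probe sets disagreed in several changes with time. The WT change from day 0 to day 2 was -0.62 on the dimmer (adjusted p = 0.011) and -0.12 on the brighter (adjusted p = 0.69), which read 6.46, 7.01 and 6.46 at day 0. That to day 6 was -0.51 on the dimmer (adjusted p = 0.039) and -0.08 on the brighter (adjusted p = 0.81). In D6-deficient skin the rise from day 0 to day 1 passed on the brighter alone (0.73, adjusted p = 0.0043, against 0.17, adjusted p = 0.49), as did the fall from day 2 to day 4 (-0.59, adjusted p = 0.035, against -0.48, adjusted p = 0.067).

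For Irf7, Irf9 and Stat2 the highest mean of WT skin was at day 4 and that of D6-deficient skin at day 2. At day 4, when WT Irf9 had risen by 0.57 over day 0 (limma adjusted p = 4.4e-05) and WT Stat2 by 0.73 on its brighter probe set (adjusted p = 0.0039), though not past the threshold on the other (0.25, adjusted p = 0.28), the genotypes no longer differed past the threshold. The WT values of day 4 stayed below the D6-deficient values of day 2, with no overlap on the brightest probe set of any of the 3 genes. In the order of the 10 group means, D6-deficient day 2 came first for each of them and did not overlap the next group, D6-deficient day 4. Below these, most neighbouring groups overlapped.

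**Figure D1:**
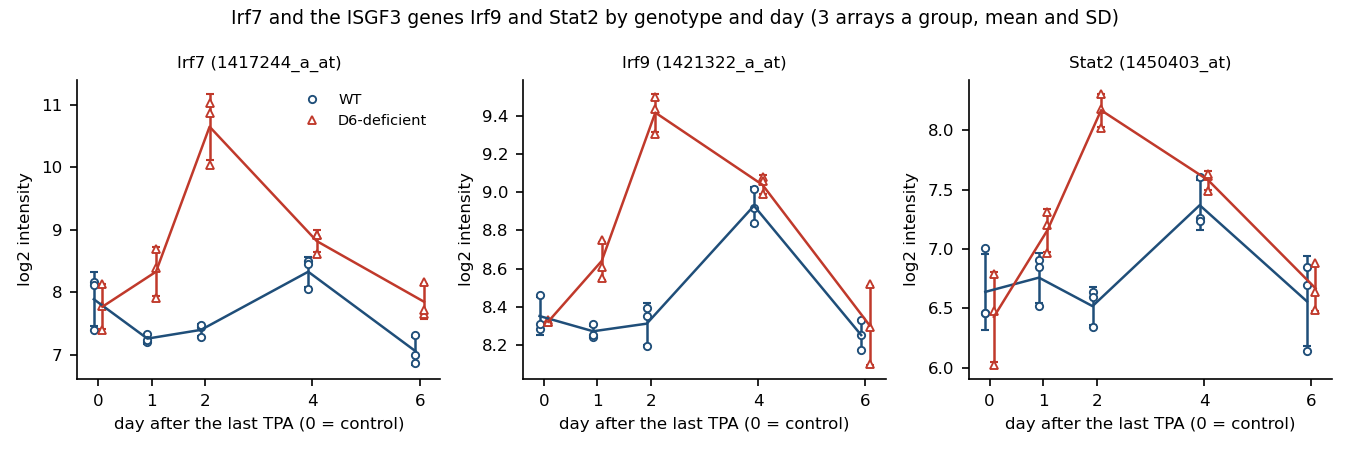
Log2 intensity (vertical axis) of Irf7, Irf9 and Stat2 on every array against the day after the last TPA application (horizontal axis, 0 = acetone control). Circles are WT and triangles D6-deficient arrays, and lines join the group means with bars of 1 SD (n = 3). D6-deficient skin peaks at day 2, where Irf7 reaches 10.04 to 11.03 against 7.29 to 7.47 in WT skin, and WT skin peaks at day 4.

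The promoters of these genes and of genes known to answer them were searched for the letters that the factors bind, in RefSeq windows of 250 bases before and 50 after each annotated start (GRCm38.p6). The ISRE core was written as GAAA, any 2 bases and GAAA, the gamma-activated site (GAS) of STAT dimers as TTC, any 3 bases and GAA, and an NF-κB site as GGGA, any 4 bases and CC, each on both strands, with overlapping matches allowed. Of 32851 windows 3.44% held the ISRE core, 8.3% the GAS and 20.7% the NF-κB letters. The 8 genes had 11 windows. Stat2 and Irf2 held the ISRE core, Irf1, Irf2 and Irf8 held a GAS, Irf1 and Irf8 held NF-κB letters, and the windows of Irf3, Irf5, Irf7 and Irf9 held none of the 3. A match is a run of letters and not a tested binding site.

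The stretches that hold the matches are shown for the members, with a pair of ISRE target genes for comparison. They are written 5′ to 3′ in the direction of the gene, and capitals mark the ISRE, GAS and, for Irf1, NF-κB letters. The NF-κB letters of Irf1 match on the opposite strand.
Stat2 (chr10:128270256-128270305, plus strand, ISRE on the opposite strand 222 bases before the start): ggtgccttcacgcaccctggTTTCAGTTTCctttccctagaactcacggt
Irf2 (chr8:46739495-46739549, plus strand, ISRE 241 and GAS 224 bases before the start): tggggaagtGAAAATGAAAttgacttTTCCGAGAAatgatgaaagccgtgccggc
Irf1 (chr11:53769904-53770013, plus strand, GAS 90 and NF-κB letters 13 bases before the start): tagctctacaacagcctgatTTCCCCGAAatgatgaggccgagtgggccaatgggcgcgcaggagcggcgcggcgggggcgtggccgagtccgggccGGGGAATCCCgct
Irf8 (chr8:120736167-120736233, plus strand, GAS 171 and 153 bases before the start): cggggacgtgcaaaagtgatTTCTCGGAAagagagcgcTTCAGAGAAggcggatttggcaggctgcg
Isg15 (chr4:156200855-156200916, minus strand, 3 overlapping ISRE cores): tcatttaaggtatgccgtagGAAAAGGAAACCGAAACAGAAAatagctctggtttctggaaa
Ifit1 (chr19:34640765-34640833, plus strand, ISRE on the opposite strand 104 and 85 bases before the start): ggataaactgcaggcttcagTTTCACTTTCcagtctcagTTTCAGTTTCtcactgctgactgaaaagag

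Among the genes listed below as targets of ISGF3 and IRF7, 17 of 24 had a window. Of these 17 genes 7 (41.2%) held the ISRE core, against 3.99% of the 27025 genes with a window. The list was drawn up as known ISRE targets, so a higher share was built into its choice and is no test. Of the 4 member genes whose probe sets passed at day 2, Stat2 held the ISRE core and Irf8 the GAS.

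Irf8 was also higher in D6-deficient skin at day 2, by far less. On its brighter probe set (1416714_at) the WT arrays read 8.43, 8.54 and 8.59 and the D6-deficient arrays 9.04, 9.05 and 9.15, without overlap. The difference was 0.56 (SE 0.16, 1.47-fold, limma adjusted p = 0.049). The other probe set (1448452_at) read 8.39, 8.51 and 8.43 in WT and 8.80, 8.91 and 9.18 in D6-deficient skin, a difference of 0.52 (SE 0.19, adjusted p = 0.14) that did not pass. The brighter one no longer passed without any 1 of the 6 arrays of day 2, nor when each array was centred on its median (adjusted p = 0.063), nor with no filter on dim probe sets (adjusted p = 0.055). Within D6-deficient skin both probe sets rose from day 0 to day 2, by 0.75 (adjusted p = 0.00076) and 0.86 (adjusted p = 0.00084), stood 0.90 and 0.97 above day 0 at day 4, and fell again by 0.80 and 0.86 to day 6. In WT skin both passed at day 4, at 0.45 (adjusted p = 0.031) and 0.57 (adjusted p = 0.02) above day 0. The change to day 2 did not differ past the threshold between genotypes (0.64, adjusted p = 0.11, and 0.61, adjusted p = 0.23).

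Irf5 read 8.00, 8.02 and 8.20 in WT and 8.58, 8.27 and 8.55 in D6-deficient skin at day 2. The arrays did not overlap, but the difference of 0.39 (SE 0.15, limma adjusted p = 0.15) did not pass. By day 4 it had risen over day 0 in both genotypes, by 0.57 in WT (adjusted p = 0.0033) and 0.52 in D6-deficient skin (adjusted p = 0.0067), and from day 4 to day 6 it fell in both, by 0.60 and 0.52.

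Markers of infiltrating cells differed between the genotypes at day 2, as did 1 probe set of Irf8. At that day 2.46% of all tested probe sets were higher in D6-deficient skin and 1.99% lower. Of 10 macrophage and monocyte markers 5 were higher in D6-deficient skin at day 2 and none lower (Fcgr1 by 2.14, Cd14 by 1.62, Cd68 by 0.82). Their summed level ran from 15.28 to 15.43 on the D6-deficient and from 14.85 to 14.94 on the WT arrays. Of 9 neutrophil markers 5 were higher (Ngp by 4.82), with summed levels of 15.59 to 15.74 against 15.22 to 15.65. Of 10 dendritic cell markers 1 was lower (Cd207, the langerin of Langerhans cells, by -2.38), and the summed levels overlapped (14.61 to 15.05 against 14.65 to 14.96). Plasmacytoid dendritic cells, which make much interferon α, had 1 of 7 markers higher (Spib by 1.22), with summed levels of 12.77 to 13.17 against 12.64 to 12.83. Of the T cell markers 1 of 8 was higher, although the summed level was lower in D6-deficient skin (11.43 to 11.77 against 11.80 to 11.93). None of 4 B cell, 5 keratinocyte and 3 adipocyte markers passed, and the summed B cell level was also lower (6.70 to 6.85 against 6.91 to 6.98). Of 4 markers of skeletal muscle, a layer of which lies under the skin, 1 was lower (Tnnt3 by -0.71), with a median of -0.56 and summed levels of 14.32 to 14.49 in D6-deficient against 14.81 to 14.94 in WT skin. Every marker tested gave some intensity on each array, as RMA values do. The part of these cells in the differences of Irf8, Irf5 and the other members was not tested.

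**Figure D2:**
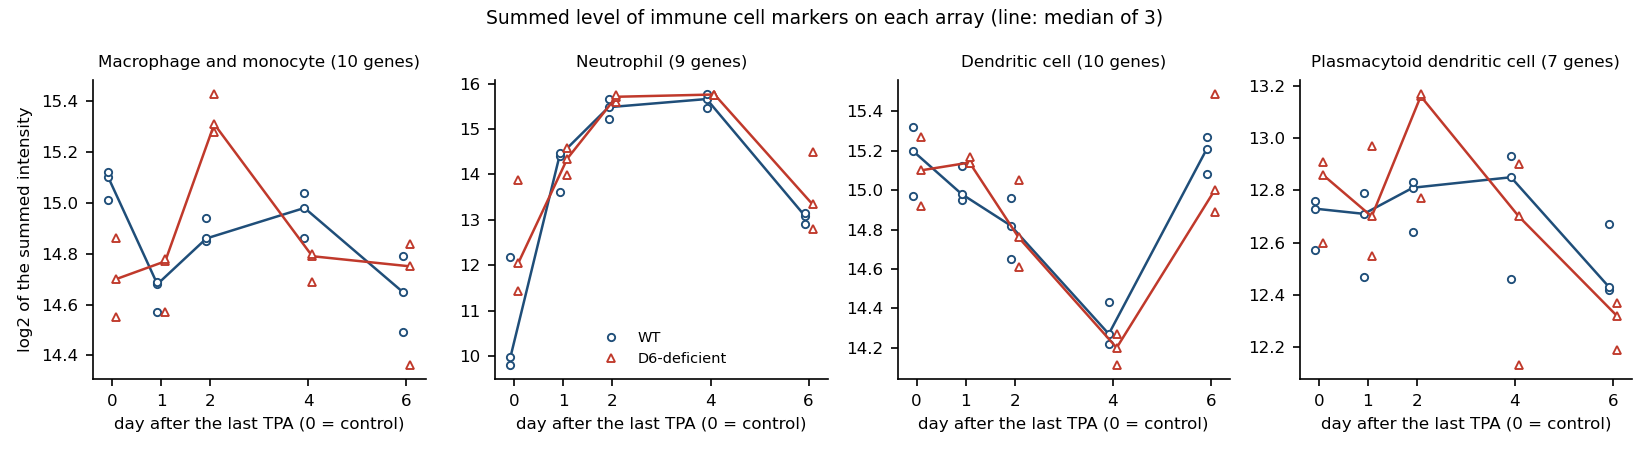
Log2 of the summed intensity of macrophage and monocyte, neutrophil, dendritic cell and plasmacytoid dendritic cell markers (vertical axis) on each array against the day after the last TPA application (horizontal axis). Circles are WT and triangles D6-deficient arrays (3 a group), and lines join the medians. The macrophage and monocyte markers separate the genotypes at day 2, at 15.28 to 15.43 against 14.85 to 14.94, and also at days 0 and 4, where D6-deficient skin is the lower, at 14.55 to 14.86 against 15.01 to 15.12 and at 14.69 to 14.80 against 14.86 to 15.04.

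Irf1, an activator that interferon γ induces strongly, fell at day 1 in both genotypes. From day 0 to day 1 it fell by 0.59 in WT (SE 0.17, limma adjusted p = 0.016) and by 0.50 in D6-deficient skin (SE 0.17, adjusted p = 0.026). By day 4 it was above day 0 by 0.51 in WT skin (adjusted p = 0.021), and the 0.42 of D6-deficient skin (adjusted p = 0.057) did not pass. Its day 4 values were 10.37, 10.14 and 10.39 on the WT arrays and 10.38, 10.12 and 10.30 on the D6-deficient arrays, with no separation between them. From day 4 to day 6 it fell by 0.91 in WT (adjusted p = 0.00043) and by 0.93 in D6-deficient skin (adjusted p = 0.00022). At day 2 the WT arrays read 9.59, 9.40 and 9.76 and the D6-deficient arrays between 9.82 and 10.15, a difference of 0.41 (SE 0.17, adjusted p = 0.23) that did not pass.

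Irf2, its frequent antagonist, went down after TPA. From 8.33, 8.31 and 8.34 at day 0 the WT arrays reached 7.62, 7.54 and 7.45 at day 1, and the D6-deficient arrays went from 8.37, 8.22 and 8.25 to 7.39, 7.56 and 7.68. The falls were 0.79 in WT (the change was -0.79, SE 0.11, limma adjusted p = 2e-05) and 0.74 in D6-deficient skin (the change was -0.74, SE 0.11, adjusted p = 2.5e-05). In WT skin it was still lower than at day 0 on days 2 (-0.65, adjusted p = 0.00014), 4 (-0.35, adjusted p = 0.018) and 6 (-0.75, adjusted p = 6e-05), and in D6-deficient skin it passed again at day 6 (-0.47, adjusted p = 0.0029). At day 2 the D6-deficient arrays (8.01, 7.96 and 8.19) lay above the WT arrays (7.73, 7.62 and 7.66), and the difference of 0.38 (SE 0.11, adjusted p = 0.054) missed the threshold.

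Irf3 was the gene with the smallest genotype difference at day 2. On its brightest probe set (1426111_x_at) the day 2 arrays read 9.34, 9.37 and 9.29 in WT and 9.31, 9.30 and 9.38 in D6-deficient skin. The genotype difference there was 0.00 (SE 0.08, 95% interval -0.18 to 0.17). Over the 4 probe sets the day 2 differences ran from -0.12 to 0.04. The 2 brighter probe sets rose from day 0 to day 1, by 0.42 (limma adjusted p = 0.00078) and 0.34 (adjusted p = 0.014) in WT and by 0.48 (adjusted p = 0.00012) and 0.56 (adjusted p = 0.00012) in D6-deficient skin. The 2 dimmer ones (1435271_at and 1438721_a_at) passed in no contrast. The suffix of the brightest marks probes that may also match other transcripts.

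**Figure D3:**
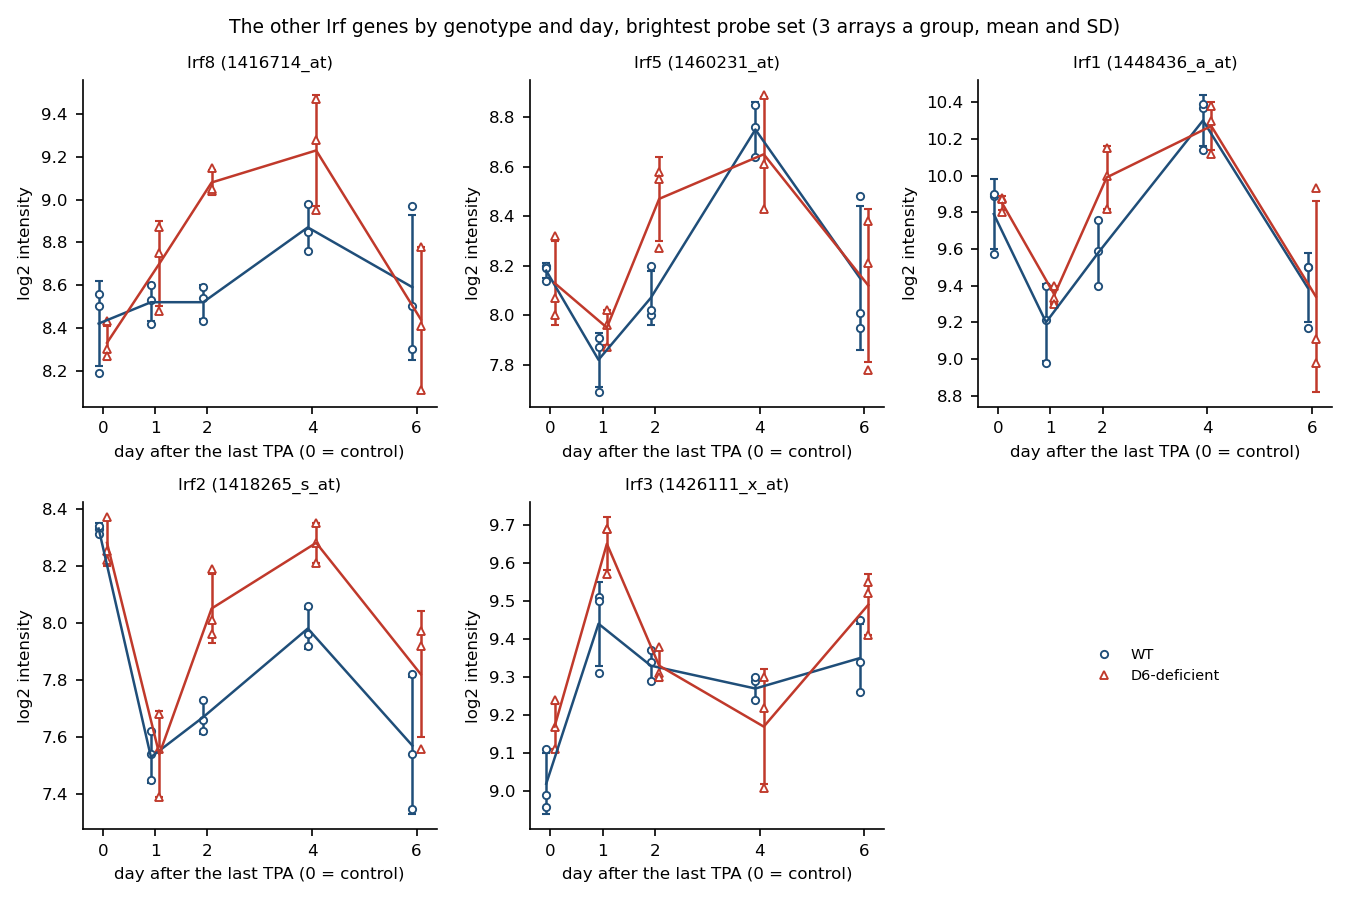
Log2 intensity (vertical axis) of Irf8, Irf5, Irf1, Irf2 and Irf3, each on its brightest probe set, on every array against the day after the last TPA application (horizontal axis). Circles are WT and triangles D6-deficient arrays, and lines join the group means with bars of 1 SD (n = 3). Irf1 and Irf2 are lower at day 1 than at day 0 in both genotypes, and Irf1 and Irf5 are highest or near their highest at day 4.

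Counted over the 13 probe sets, the members changed with time in both genotypes at about the rate of the array or above it. In WT skin 4 members differed from the controls after 1 day, 2 upwards and 2 downwards, while 24.0% of all tested probe sets passed. After 2 days 3 did so, 1 upwards, against 26.1% of all, and after 4 days 9 did so, 8 of them upwards, against 39.1%. By day 6 the number was 5, of which 2 were upwards, against 22.1%. The day 4 number was 4 without WT day 0 replicate 1 and also 4 without WT day 4 replicate 3. The day 6 number was 2 without WT day 0 replicate 1 or replicate 2, and 1 without WT day 6 replicate 2. In D6-deficient skin 6 members differed from the controls after 1 day, 4 of them upwards, against 36.3% of all. After 2 days 7 had risen and none had fallen, against 38.1% that changed, and after 4 days 8 had risen and none had fallen, against 41.1%. By day 6 the number was 4, of which 2 were upwards, against 31.7%. Of all tested probe sets 17.5% were higher at day 2 and 18.8% at day 4 than at day 0 in D6-deficient skin.

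From day 2 to day 4 the members that passed rose in WT skin and fell in D6-deficient skin. Every probe set that passed in D6-deficient skin also passed in WT skin, in the opposite direction. In WT skin 6 probe sets rose and none fell (of all tested probe sets 14.5% passed and 7.16% rose), those of Irf1, Irf5, Irf7, Irf9 and Stat2. In D6-deficient skin 3 fell and none rose (16.3% passed and 8.54% fell), those of Irf7, Irf9 and 1 of Stat2, while Irf1 (0.28, adjusted p = 0.33) and Irf5 (0.18, adjusted p = 0.47) did not pass. The difference between these changes was not tested. From day 4 to day 6 most members fell, 7 of 13 in WT skin (22.1% of all tested passed) and 9 of 13 in D6-deficient skin, where 1 Irf3 probe set rose (31.4% passed and 14.5% fell).

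At the other days no member differed between the genotypes past the threshold. With limma 0 of 13 passed at days 0, 1, 4 and 6, where 1.57%, 0.0555%, 0.513% and 0.125% of all tested probe sets did. An unadjusted p under 0.05 was reached by 0, 5, 2 and 2 members on these days. The share of all tested probe sets at that unadjusted cut was not computed, so these counts cannot be set against the shares above. The methods' t-test gave 0 members on each of these days after adjustment. The change from day 0 differed between genotypes for 0 of 13 at days 1, 4 and 6 (0.0194%, 0.608% and 0.0250% of all tested passed). An unadjusted p under 0.05 was reached there by 4, 2 and 1 members, again without a share over all at that cut. At day 1 the D6-deficient arrays of 5 probe sets lay above all WT arrays (Irf7, Irf9, both of Stat2 and the brightest of Irf3), which was so for 7.92% of all tested probe sets. At day 4 it was so for 4 members (Irf2, Irf7, the dimmer of Irf8 and the dimmer of Stat2), against 7.49% of all. It was so for 1 member at day 0 (the brightest of Irf3, 10.8% of all) and 1 at day 6 (Irf7, 3.59% of all).

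**Figure D4:**
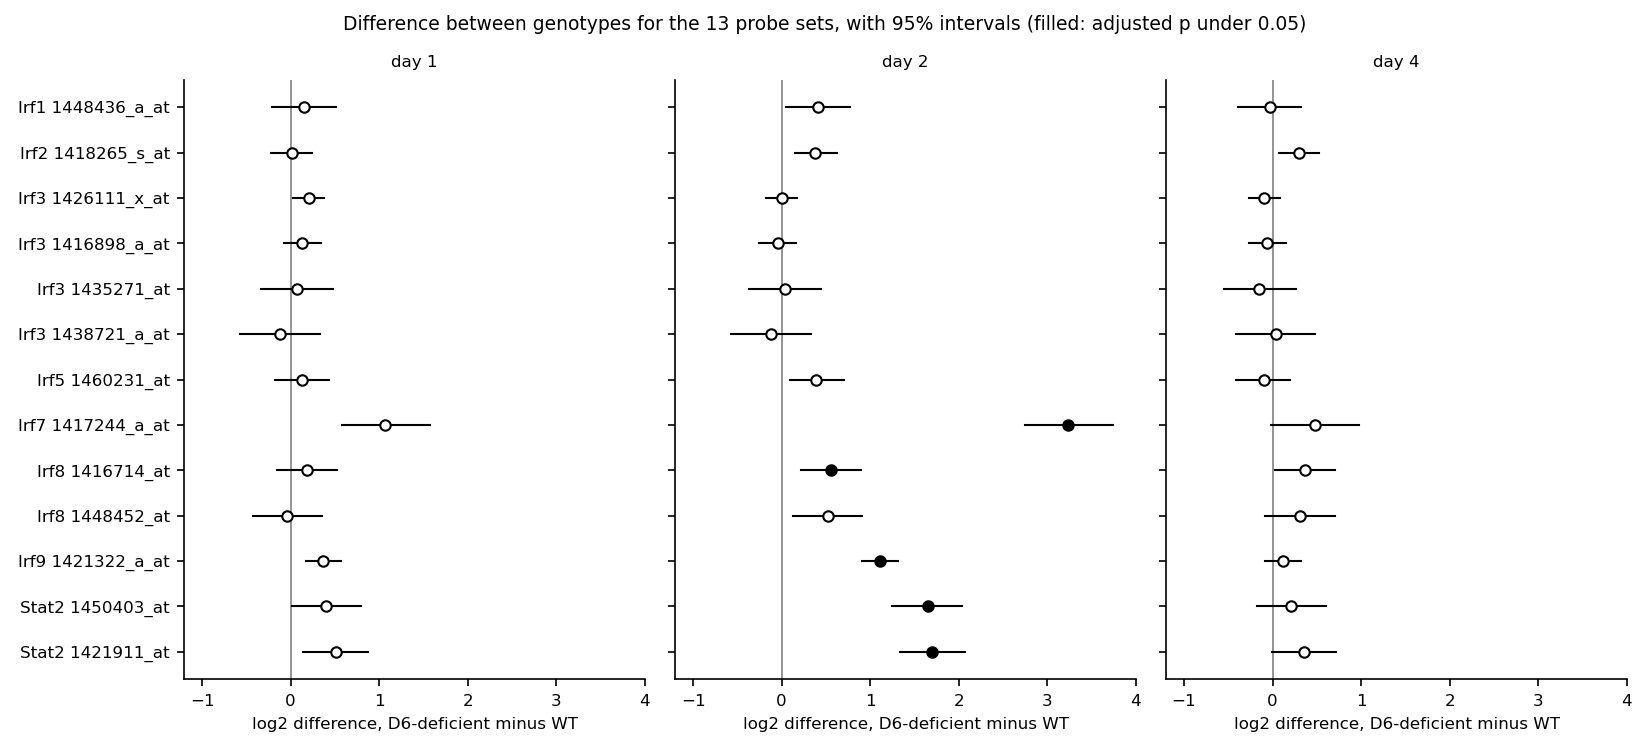
Log2 difference, D6-deficient minus WT (horizontal axis), for each of the 13 probe sets (vertical axis) at days 1, 2 and 4. Points are limma estimates with 95% intervals, filled where the adjusted p was under 0.05. The 5 filled points are all at day 2, with Irf7 farthest from 0 at 3.24.

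The rest of the pathway was read from lists by role, with 1 probe set for each gene, its brightest, and differences given as D6-deficient minus WT at day 2. At that day 2.46% of all tested probe sets were higher in D6-deficient skin. The list of interferons, receptors and JAK kinases had 27 genes, of which 21 were on the array. Interferon γ (Ifng), Ifna4 and Ifna11 were too dim to be tested. The 18 genes left were measured by 12 probe sets, since 7 interferon α genes share 1. Of the 12, 1 was higher (Ifnar1, a receptor chain of type I interferon, by 0.42, limma adjusted p = 0.023). Interferon β (Ifnb1) differed by 0.20 (adjusted p = 0.63) and the shared interferon α probe set by -0.42 (adjusted p = 0.40), and neither passed. Of 15 activators of the factors 3 were higher. These were Ddx58 (1.50), which encodes the RNA sensor RIG-I, Ifih1 (1.34), which encodes the sensor MDA5, and Tlr7 (0.81), a receptor for single-stranded RNA that was lower in D6-deficient skin at day 0 (-0.89, adjusted p = 0.019). Of 10 feedback inhibitors 2 were higher, Usp18 (2.90), which removes ISG15 from proteins and blocks the type I receptor, and Trim21 (0.50), a ubiquitin ligase.

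Genes known as targets of ISGF3 and IRF7 moved as a body. All 24 of the list were higher in D6-deficient skin at day 2 and none lower, against 2.46% of all tested probe sets that were higher. The median difference was 1.95 against -0.02 over all tested probe sets. The largest were Ifi44 (4.31), Ifit1 (3.74), which binds foreign RNA, and Isg15 (3.70), a ubiquitin-like protein. The smallest were Herc6 (1.12), the ligase that attaches ISG15, Parp9 (1.03) and Dtx3l (0.95). The study had singled out several genes of this list on these same arrays, so their count is not independent evidence of the direction. From day 0 to day 2 the list rose in D6-deficient skin for 24 of 24 (median 2.06), where 17.5% of all tested probe sets rose. In WT skin 8 of 24 fell and none rose over these days (median -0.45), where 15.0% of all fell. The change differed between genotypes for 24 of 24 (median 2.38), where 2.78% of all were higher in D6-deficient mice. At day 0 itself none of the 24 passed between genotypes, but the list lay lower in D6-deficient skin (median -0.33), which enters the 2.38.

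Of the 24, 2 were higher in D6-deficient skin at day 1, Isg15 (1.29, limma adjusted p = 0.028) and Oas1a (1.25, adjusted p = 0.046), with a list median of 0.51. At that day 0.0194% of all tested probe sets were higher. At day 4 none of the 24 passed (median 0.35). In D6-deficient skin 19 of the 24 fell between day 2 and day 4 and none rose, where 8.54% of all tested probe sets fell. In WT skin 9 rose and none fell over the same days, where 7.16% of all rose.

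Genes known as targets of IRF1 and IRF8 moved less. Of the 21 on the list 9 were higher in D6-deficient skin at day 2 and none lower, with a median of 0.56, where 2.46% of all tested probe sets were higher. The largest were the chemokine Cxcl9 (2.30) and the interferon-inducible GTPases Iigp1 (1.67) and Irgm1 (1.62), and the smallest the protease Ctss (0.56), the peptide transporter Tap1 (0.65) and the oxidase subunit Cybb (1.14). Cxcl9 alone of the 21 passed at day 4 (2.01, limma adjusted p = 0.018). The change from day 0 to day 2 differed between genotypes for 3 of the 21, Irgm1 (1.72), Gbp3 (1.31) and Ctss (0.63), where 2.78% of all were higher.

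**Figure D5:**
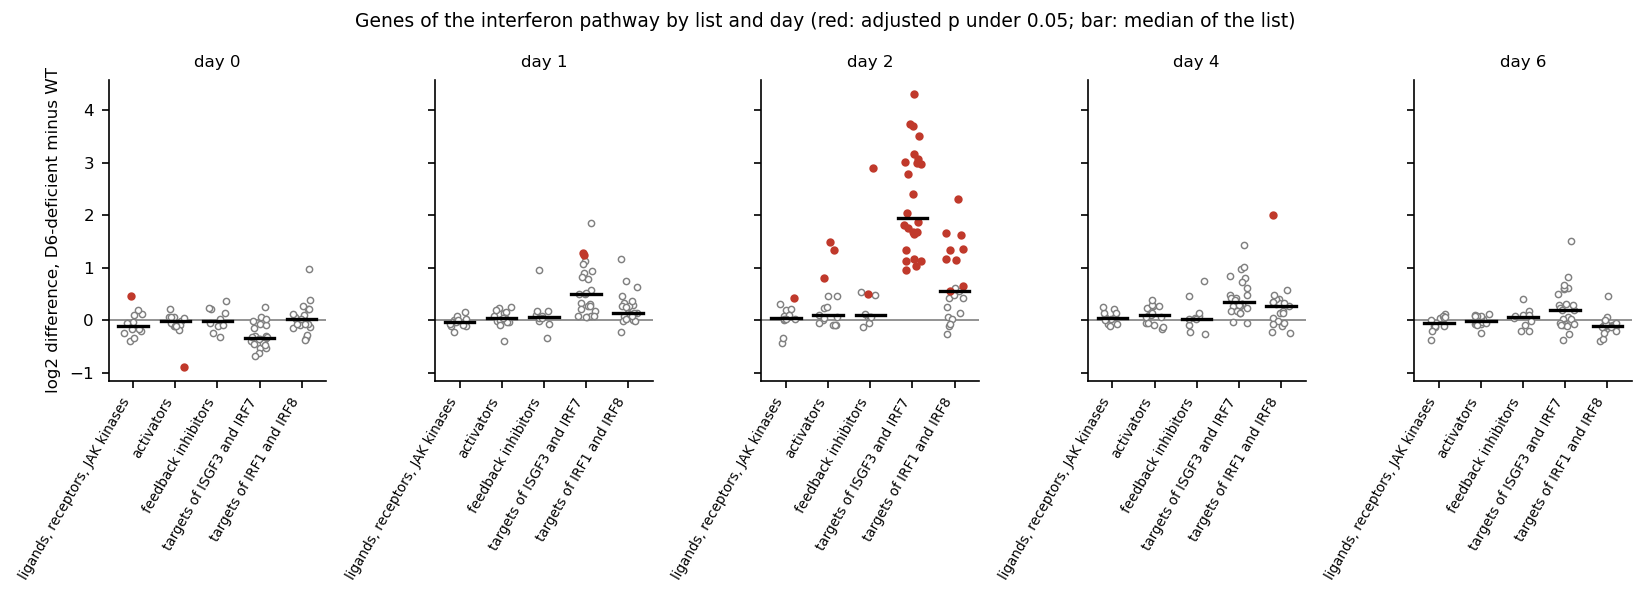
Log2 difference, D6-deficient minus WT (vertical axis), of the genes of 5 lists of the interferon pathway (horizontal axis) at days 0, 1, 2, 4 and 6, with 1 point a probe set, red where the adjusted p was under 0.05, and a bar at the list's median. At day 2 all 24 targets of ISGF3 and IRF7 are red with a median of 1.95, while 1 of 12 probe sets of the ligands, receptors and kinases is.

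Across the 30 arrays, which share groups and treatment, the levels of Irf7, Irf9 and Stat2 ran together. As a description, Pearson's r was 0.91 between Irf7 and Irf9, 0.86 between Irf7 and the brighter Stat2 probe set, and 0.92 between Irf9 and that probe set. Irf9 and the brightest Irf3 probe set had an r of -0.10. The genes outside the 8 whose levels were most like those of Irf7 over the 30 arrays were Oas1a (r = 0.979), Oasl2 (0.972) and Rtp4 (0.965). For Irf9 they were Rtp4 (0.986), Ifi47 (0.958) and Adar (0.957), and for Stat2 Adar (0.959), Herc6 (0.940) and Rtp4 (0.937). Irf1 was most like Iigp1 (0.923), Irf5 most like Fermt3 (0.958), a leukocyte adhesion protein, Irf8 most like Apobec3 (0.865), Irf2 most like Soat1 (0.890) and Irf3 most like Dhx15 (0.942).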

How the data were processed

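RNA from whole back skin was hybridized to Affymetrix mouse expression arrays. The authors computed intensities by RMA (background correction, quantile normalization and summarization of probes), per the labels and methods, and deposited them on a linear scale before any baseline transformation. RMA shrinks low values, and detection calls were not used. Here log2 was taken. The 20% of probe sets with the lowest mean (9008) were left out, as in the methods. limma 3.58.1 in R 4.3.3 (lmFit and eBayes) was fitted to all 30 arrays with 1 mean for each group, without the replicate number, and p was adjusted by Benjamini-Hochberg. The fit was tested on simulated arrays. The methods' t-test and other settings were alternatives, since 3 arrays against 3 cannot give an exact permutation p below 0.1. Every probe set of the 8 genes is named, the brightest leading, and of each list up to 3 of the largest and 3 of the smallest passing differences; markers named are examples chosen after their values were seen. The 8 genes and all lists were chosen with earlier results of these data known. Promoter sequences are RefSeq's. Python 3.11.15, pandas 2.3.3 and matplotlib 3.10.9 were used.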

Additional observations from a re-analysis of the deposited data

Results flagged for a closer look

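A closer look is due where the change from day 0 differed between genotypes by the test of that difference (limma adjusted p under 0.05). At day 2 this held for 4 of the 13 probe sets, in each case with a greater rise in D6-deficient mice. Irf7 had the widest difference, at 3.37 (SE 0.34, adjusted p = 1.7e-06). The Stat2 probe sets followed at 1.86 (1450403_at, adjusted p = 0.00018) and 1.82 (1421911_at, adjusted p = 8.9e-05), and Irf9 at 1.14 (adjusted p = 1.5e-05). These contrasts share the day 0 arrays with those of the other days. With 3 arrays a group, single arrays were not tested as outliers.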

How the results depend on the processing

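The genotype differences of Irf7, Irf9 and both Stat2 probe sets at day 2, and the differences in their change from day 0, kept their direction in every alternative run. The former no longer passed by the methods' t-test after Benjamini-Hochberg adjustment (adjusted p from 0.091 to 0.12), and the latter passed there (adjusted p at most 0.033). For the latter that t-test takes the day 0 median of each genotype as fixed. The spread of the day 0 arrays thus does not enter its p. Irf9, under 3-fold in both, missed the methods' own threshold, and in every other alternative all of them passed. The Irf8 call at day 2 depended on the setting (adjusted p from 0.023 to 0.16). The cause of this was not tested. Counts of passing members moved by more than 1.5 times as follows. By the methods' t-test after adjustment the day 2 genotype difference had 0, the WT changes from day 0 had 1 at day 1, 4 at day 4 and 0 at day 6, the D6-deficient change to day 6 had 0, and the steps from day 2 to 4 and from day 4 to 6 had 0 and 1 in WT and 0 and 0 in D6-deficient skin. At the methods' own threshold of more than 3-fold the day 2 genotype difference had 3, the D6-deficient change to day 2 had 2 and that from day 2 to day 4 had 1, and every other change with time had 0, which follows from the fold limit. Fitting the arrays of a contrast alone left 2 for the WT change to day 6 and 1 for that of D6-deficient skin. With the probe sets of a gene averaged, 1 gene instead of 3 passed for the WT change to day 2 and 2 instead of 4 for that to day 6. The averaged value of Irf3 for the D6-deficient change to day 4 was -0.06, against 0.29 on 1 of its brighter probe sets (1416898_a_at). The brightest had a mean of 9.17 on both days. The 2 dimmer ones, which also enter the average, had lower means at day 4 than at day 0. Leaving out 1 array gave 4 to 8 for the WT change to day 4 and 1 to 5 for that to day 6; the other counts stayed within 1.5 times. Median centring, quantile normalization, no filter, a variance trend and the sets of the hybridization controls moved no count by that much.

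The replicate numbers did not pair the arrays. In none of 17 comparisons were all correlations between same-numbered arrays over 0.1 (they ran from -0.29 to 0.38). With the replicate block 6 members instead of 5 passed for the genotype difference at day 2, Irf2 being added (adjusted p = 0.036), and 4 passed with and without it for the difference in the change from day 0 to day 2.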
